A study of Mus musculus with 6 samples.

Results

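The genes described here are 10 members of the growth hormone, JAK and STAT pathway: the inhibitors Cish, Socs1, Socs2 and Socs3, the transcription factors Stat3, Stat5a and Stat5b, the kinases Jak2 and Pim1, and the growth hormone receptor Ghr. They were taken by gene symbol from the authors' tables, all 10 of 10 were found among 55484 genes, and all 10 were tested by the authors. The genes were selected on their pathway and on the FPKM of this same comparison, which earlier work on these data had shown, so their values below are a description and no test is made on them. Polyadenylated RNA was taken from the femur of wild-type male C57BL/6 mice at 12 weeks of age, 3 with a running wheel in the cage and 3 sedentary. Both groups ate normal chow, entered at 6 weeks of age and lived singly for 6 weeks, the running mice with free access to the wheel and the sedentary mice in cages without one. Neither the distance run nor the handling of the marrow is stated in the sources used here. The authors deposited a single pooled FPKM for each group (fragments per kilobase of a transcript, scaled to sequencing depth) together with interval bounds of unstated level, so no value of a single mouse and no SD can be given. Each log2 fold given is running over sedentary after adding 0.1 FPKM, on the log2(FPKM + 0.1) scale, and understates changes of low genes. A gene counts as called at a q under 0.05 in the authors' deposited table, and of the 15508 tested genes 146, or 0.941%, were called.

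Growth hormone binds its receptor, and the kinase JAK2 bound to the receptor's tail then phosphorylates STAT5A and STAT5B, which enter the nucleus and switch on target genes. Erythropoietin, thrombopoietin, interleukin-3 and other blood growth factors use the same kinase and STATs, while the interleukin-6 family, leptin and granulocyte colony-stimulating factor act mainly through STAT3. CISH and the SOCS proteins are made in response and shut the signal off by binding the receptors or kinases and carrying them to a ubiquitin ligase, and the kinase gene Pim1 is another target of STAT3 and STAT5. In bone, growth hormone acts on the growth plate, on osteoblasts and through insulin-like growth factor, and the marrow holds blood cells that answer to the other ligands.

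Of the 10 genes, Cish and Pim1 were called lower in the running mice and none was called higher. That is 2 of 10 called, both lower, where 0.497% of all tested genes were called lower; since the list was chosen with this comparison known, nothing is read from the difference. For both genes the authors' intervals of the groups lay apart, which was so for 0.574% of all tested genes (0.4% with the running value lower). With q under 0.01, which 0.696% of all tested genes reached (0.303% higher and 0.393% lower), the count was again 2; with q under 0.1, reached by 1.23% (0.638% higher and 0.587% lower), it was 3. Socs3, at q = 0.0517 in the authors' deposited table, stood just outside the threshold. Ghr, Jak2, the 3 STAT genes, Socs1 and Socs2 were not called. The median log2 fold of the 10 genes was -0.08, against -0.01 over all tested genes, and 4 of the 10 were above 0. With femoral RNA as a whole, fewer cells of a type and less RNA per cell cannot be told apart.

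**Figure D1:**
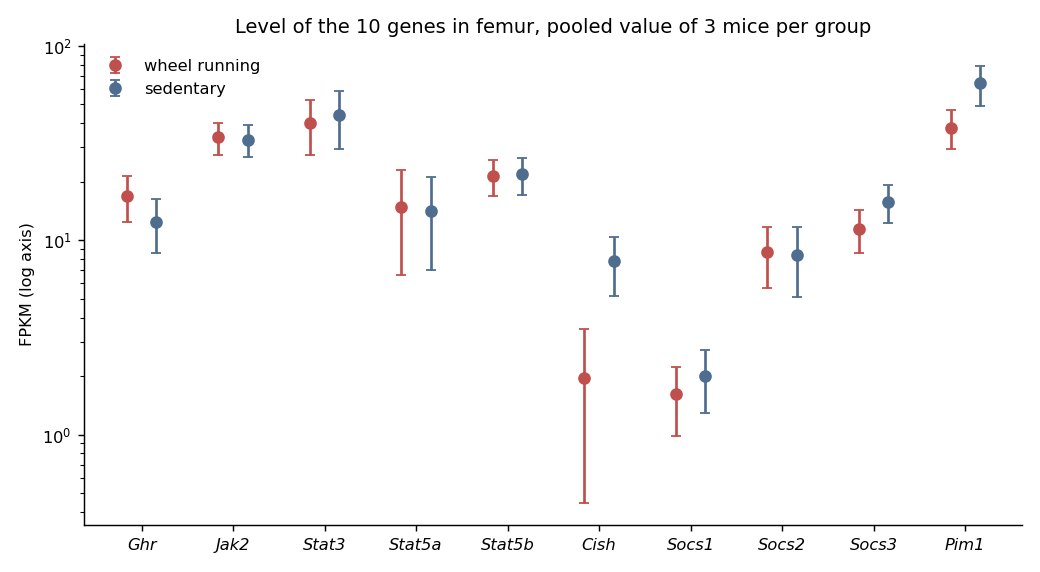
Pooled FPKM (log axis) of the 10 genes in wheel running and sedentary mice; points are the authors' values and bars run from the lower to the upper bound of the authors' interval. The intervals of Cish, which end at 3.48 in running mice and begin at 5.17 in sedentary mice, and those of Pim1 do not touch, while the intervals of the other genes overlap.

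Cish (ENSMUSG00000032578; chromosome 9, 107296026 to 107302784, plus strand, GRCm38) encodes the cytokine-inducible SH2 protein, an inhibitor that STAT5 itself induces and that occupies the receptor sites where STAT5 docks. Its FPKM was 1.96 (interval 0.444 to 3.48) in running mice and 7.80 (5.17 to 10.4) in sedentary mice. The pooled value fell by 74.8%, which is a ratio of 0.252 and a log2 change of -1.94. Its test statistic in the authors' deposited table was -3.27, with a q of 0.00718 that 108 genes share as the lowest of all. The pooled level of Cish lay at percentile 17.8 of the tested genes in running mice and at percentile 43.3 in sedentary mice. Counted from the lowest log2 fold of all tested genes, it ranked 61. The interval was wide in running mice, at 77.4% of the FPKM on either side, against 33.7% in sedentary mice.

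The promoter of Cish is shown because STAT5 dimers bind the palindrome TTCNNNGAA, and in the RefSeq window (GRCm38.p6, from 250 bases before to 50 bases after the transcript start) this motif occurs in 2 of the 9 genes of the list that have a window, Cish and Socs3. Capitals mark each match; the motif reads the same on both strands.
Cish, chr9:107296409-107296708, plus strand: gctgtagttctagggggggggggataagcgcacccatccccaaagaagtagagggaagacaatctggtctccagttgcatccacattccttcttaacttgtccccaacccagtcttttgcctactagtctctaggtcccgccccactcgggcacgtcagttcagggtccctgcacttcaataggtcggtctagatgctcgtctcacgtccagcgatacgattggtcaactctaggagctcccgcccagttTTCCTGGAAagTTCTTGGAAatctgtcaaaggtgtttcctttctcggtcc
Socs3, chr11:117969317-117969616, minus strand: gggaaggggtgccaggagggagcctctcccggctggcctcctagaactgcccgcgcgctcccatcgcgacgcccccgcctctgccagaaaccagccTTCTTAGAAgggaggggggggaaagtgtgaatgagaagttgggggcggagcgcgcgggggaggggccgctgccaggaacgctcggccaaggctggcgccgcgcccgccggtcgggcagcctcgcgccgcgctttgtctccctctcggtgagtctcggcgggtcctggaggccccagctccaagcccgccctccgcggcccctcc
Pim1, chr17:29490535-29490834, plus strand: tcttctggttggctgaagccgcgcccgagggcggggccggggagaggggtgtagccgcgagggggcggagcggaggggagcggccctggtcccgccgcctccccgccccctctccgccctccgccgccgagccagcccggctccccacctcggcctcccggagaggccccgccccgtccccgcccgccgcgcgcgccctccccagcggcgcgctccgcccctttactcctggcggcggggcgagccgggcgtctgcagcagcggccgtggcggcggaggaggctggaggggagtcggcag
The Cish window holds 2 matches, TTCCTGGAA at bases 251 to 259 and TTCTTGGAA at bases 262 to 270 of the 300, so the first begins at the RefSeq transcript start and both lie in an annotated exon (chromosome 9, 107296659 to 107296667 and 107296670 to 107296678). Among all 32851 windows of the table, 8.30% hold at least 1 match and 0.457% hold 2 or more. Socs3 has 1 match, TTCTTAGAA, at bases 97 to 105, position -154 from its RefSeq transcript start, and in no annotated exon. The GENCODE start of Socs3 lies further upstream, at 117970047, so this match (chromosome 11, 117969512 to 117969520) lies inside the GENCODE gene. Likewise, the GENCODE start of Cish, at 107296026, lies before the whole Cish window. Pim1 is shown for contrast, as the other called gene: neither of its 2 windows contains these letters, nor do the windows of Stat3, Stat5a, Stat5b, Jak2, Ghr and Socs1. With 4 free bases between the half-sites in place of 3, a form found in 6.95% of all windows, none of the 13 windows of the list has a match. Socs2 has no entry. Whether a STAT protein occupies any of these letters in bone was not measured.

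Genes around Cish were examined because fragments of overlapping transcripts can be shared. A processed pseudogene, Gm17040, and an antisense gene, Gm17041, lie on the other strand and share 261 and 479 exon bases with Cish. Gm17041 was listed at 0 in running mice, against 0.718 FPKM (0 to 3.16) in sedentary mice, and Gm17040 at 0.0303 (0 to 0.320) in running mice and 0.478 (0 to 1.75) in sedentary mice. Both were untested by the authors, and both were low on the side where Cish was low. The library kit was directional, but the sources used here do not say whether strand was used in counting. Whether fragments of Cish and of these genes were kept apart is therefore not known. Within 100 kb of the Cish start, 9 genes are listed, 2 of them tested. Mapkapk3, a stress kinase gene whose start lies at -6149 bases from that of Cish, had 34.3 FPKM (25.1 to 43.6) in running mice and 38.8 (25.4 to 52.1) in sedentary mice. Hemk1, a methyltransferase gene, had 3.82 (0.991 to 6.64) in running mice and 3.94 (1.501 to 6.39) in sedentary mice. Neither tested neighbour was called. Of the other untested genes, Dock3 stood at 0.179 and 6430571L13Rik at 0.423 FPKM in running mice, against 0.0884 and 0.312 in sedentary mice, and Gm22238, 1700039M15Rik and 4930429P21Rik were listed at 0 in both groups.

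Socs2 and Socs1 were not called, each with q = 0.9997 in the authors' deposited table. Socs2 (chromosome 10, 95385362 to 95417180), which growth hormone induces through STAT5 and whose loss makes mice overgrow, had 8.70 FPKM (5.69 to 11.7) in running mice and 8.35 (5.08 to 11.6) in sedentary mice, a log2 fold of 0.06. In sedentary mice Cish and Socs2 stood next to each other with overlapping intervals, whereas in running mice the Cish interval lay below that of Socs2. Socs1 (chromosome 16, 10782240 to 10785536), which blocks JAK kinases after interferon, had 1.61 (0.982 to 2.24) in running mice and 2.01 (1.29 to 2.73) in sedentary mice, a log2 fold of -0.30 with overlapping intervals. Cish lay above Socs1 without overlap in sedentary mice, and in running mice their intervals overlapped.

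Socs3 (ENSMUSG00000053113; chromosome 11, 117966079 to 117970047, minus strand) encodes the inhibitor of the interleukin-6, leptin and granulocyte colony-stimulating factor receptors. Its FPKM was 11.4 (8.61 to 14.2) in running mice and 15.7 (12.3 to 19.1) in sedentary mice, a ratio of 0.726 and a log2 change of -0.46. The intervals overlapped, and with p = 0.0005 and q = 0.0517 in the authors' deposited table it did not pass the threshold. No other annotated gene overlaps Socs3. It has 1 annotated coding transcript of 2552 bases, which makes its depth easy to estimate: about 1269 fragments over the 3 running libraries and 1640 over the 3 sedentary libraries.

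In the SOCS family as a whole, the 4 further genes Socs4, Socs5, Socs6 and Socs7 were not called, with log2 folds from -0.04 to 0.19. Socs4, which acts on the epidermal growth factor receptor, had 13.4 FPKM in running mice and 13.2 in sedentary mice, and Socs6 8.44 and 8.67 FPKM in running and sedentary mice. The 8 family members summed to 59.9 FPKM in running mice and 68.5 in sedentary mice. Cish made up 3.28% of that sum in running mice and 11.4% in sedentary mice, Socs3 19.1% in running and 23.0% in sedentary mice, and Socs2 14.5% in running and 12.2% in sedentary mice. No error can be given for these shares, since they come from 1 pooled value per group.

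**Figure D2:**
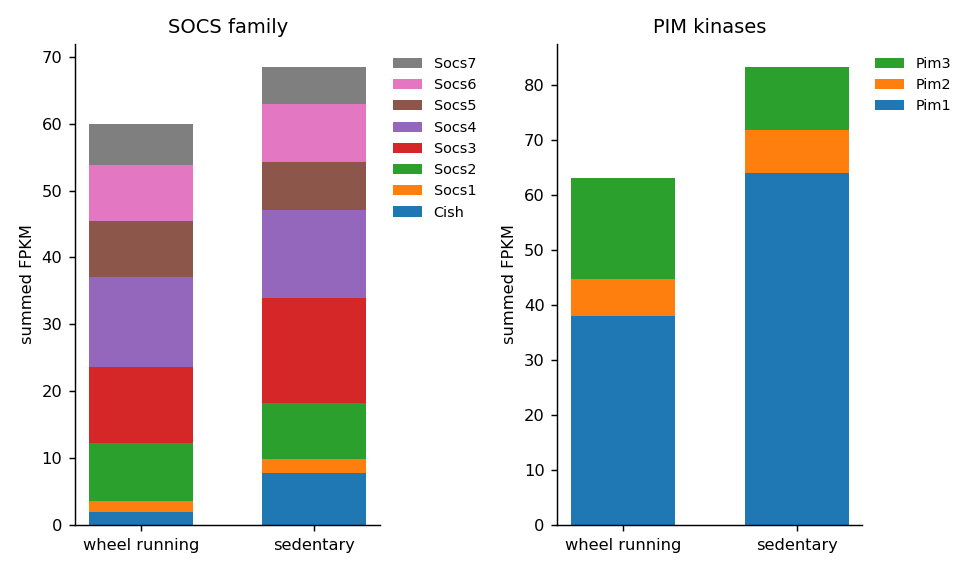
Summed FPKM of the 8 SOCS family genes (left panel) and of the 3 PIM kinases (right panel), stacked by gene, in wheel running and sedentary mice. The Cish layer is 1.96 FPKM in running and 7.80 in sedentary mice, and the Pim1 layer 37.9 in running and 64.0 in sedentary mice, while the Pim3 layer is 18.4 in running and 11.5 in sedentary mice.

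Pim1 (ENSMUSG00000024014; chromosome 17, 29490753 to 29496112, plus strand) encodes a serine and threonine kinase that supports survival and growth of blood cells. Its FPKM was 37.9 (29.3 to 46.6) in running mice and 64.0 (49.1 to 78.9) in sedentary mice, so it fell by 40.8%, with a ratio of 0.592 and a log2 change of -0.75. The authors' deposited table gives it a test statistic of -3.22 and a q of 0.00718. Of the 10 genes it had the highest level in sedentary mice and stood behind Stat3 in running mice, in both cases with intervals that overlapped those of Stat3. An antisense gene, Gm26885, shares 488 exon bases with Pim1 but was listed at 0.0657 FPKM (0 to 0.805) in running mice and 0.135 (0 to 0.982) in sedentary mice.

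The other PIM kinases, Pim2 and Pim3, were not called. Pim3 had 18.4 FPKM (11.9 to 25.0) in running mice and 11.5 (7.29 to 15.8) in sedentary mice, a log2 fold of 0.67, and with q = 0.0823 in the authors' deposited table it was not called. Pim2 had 6.84 (4.43 to 9.25) in running mice and 7.79 (5.58 to 9.99) in sedentary mice. Pim1 therefore held 60.0% of the summed PIM level of 63.2 FPKM in running mice and 76.8% of the 83.3 FPKM in sedentary mice, and Pim3 held 29.2% in running and 13.8% in sedentary mice.

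At the head of the pathway, Ghr (ENSMUSG00000055737; chromosome 15, 3317760 to 3583492, minus strand), the growth hormone receptor, had 16.9 FPKM (12.4 to 21.5) in running mice and 12.5 (8.64 to 16.3) in sedentary mice. The ratio was 1.36 and the log2 fold 0.44, and with overlapping intervals, p = 0.00695 and q = 0.336 in the authors' deposited table it was not called. Ghr was thus the gene of the list with the highest log2 fold. Jak2 (chromosome 19, 29251828 to 29313080), the kinase bound to this and other receptors, had 33.9 (27.4 to 40.3) in running mice and 32.9 (26.8 to 39.0) in sedentary mice, a log2 fold of 0.04 and among the tightest intervals of the list.

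Each STAT gene had overlapping intervals, with q = 0.9997 in the authors' deposited table. Stat5b (chromosome 11, 100780731 to 100850724), the main STAT5 of growth hormone signalling in liver, had 21.4 FPKM (16.9 to 25.8) in running mice and 21.8 (17.0 to 26.6) in sedentary mice, with a log2 fold of -0.03 that turned to 0.02 after both groups were set to an equal FPKM total. Stat5a (chromosome 11, 100859351 to 100885169), known for its part in prolactin signalling in the mammary gland, had 14.8 (6.65 to 22.9) in running mice and 14.1 (7.04 to 21.2) in sedentary mice. Stat3 (chromosome 11, 100885098 to 100939540), the STAT of the interleukin-6 family, had 40.1 (27.3 to 52.9) in running mice and 43.8 (29.3 to 58.4) in sedentary mice, a log2 fold of -0.13. Stat5a and Stat3 meet tail to tail and share 72 exon bases, and Stat5a and Stat5b are close paralogs, so their single values are uncertain. The interval of Stat5a spans 55.0% of its FPKM on either side in running mice and 50.1% in sedentary mice.

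Ordered by FPKM, which is per length, the running mice had Stat3, Pim1, Jak2, Stat5b, Ghr, Stat5a, Socs3, Socs2, Cish and Socs1, and the sedentary mice Pim1, Stat3, Jak2, Stat5b, Socs3, Stat5a, Ghr, Socs2, Cish and Socs1. Most neighbours in these orders had overlapping intervals. The exceptions in running mice were 2, Jak2 above Stat5b and Socs2 above Cish; in sedentary mice they were also 2, Jak2 above Stat5b and Cish above Socs1. Stat3 and Pim1 exchanged places between the groups, as did Ghr and Socs3, and the intervals of each pair overlapped in both groups.

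**Figure D3:**
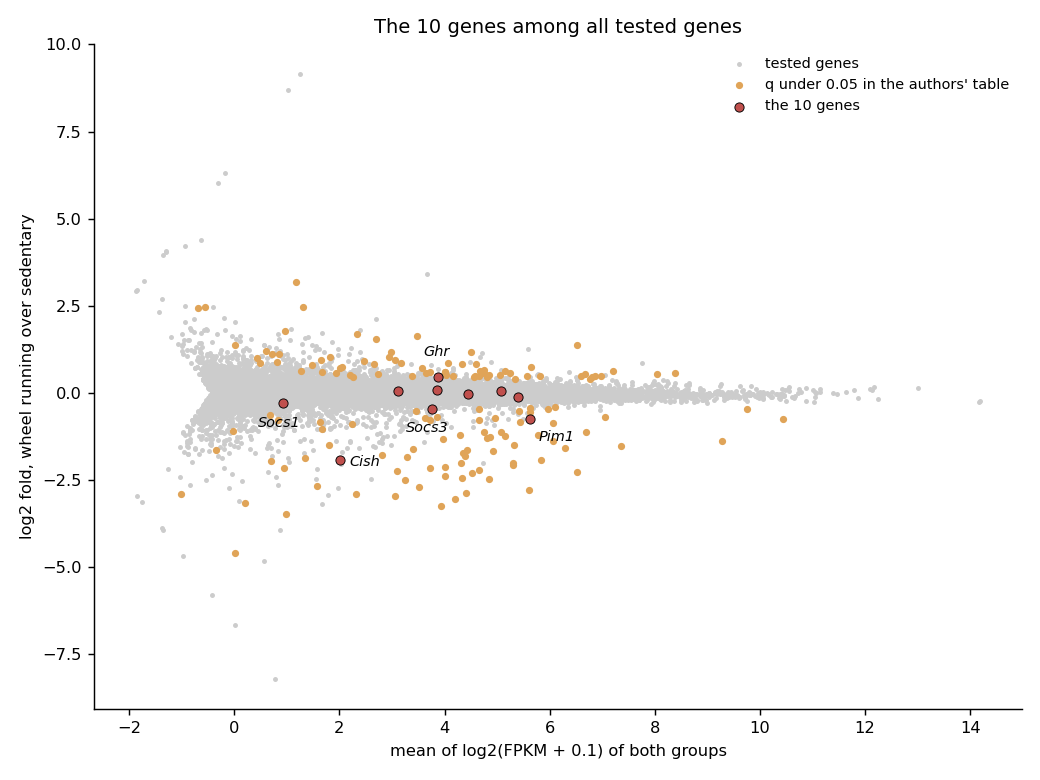
Log2 fold (wheel running over sedentary, FPKM + 0.1) against the mean log2 level for all tested genes (grey), genes with q under 0.05 in the authors' table (orange) and the 10 genes (red, 5 of them named). Cish at -1.94 and Pim1 at -0.75 are the red points that were called, and the unnamed red points lie between -0.13 and 0.07.

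Across the wider pathway, 100 further symbols in 10 lists were followed, of which 98 are in the tables and 81 were tested. Of these 81, 1 was called higher and 0 lower, against 0.445% called higher and 0.497% called lower among all tested genes. An unadjusted p under 0.05 was given to 6 of the 81 by the authors' deposited table, near the background of 876 of all 15508 tested genes (5.65%). Their median log2 fold was -0.04, and 0.01 after rescaling the groups to the same total, so it has no stable sign.

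The called gene was Lepr, the leptin receptor, which signals through STAT3. It had 39.7 FPKM (28.4 to 51.0) in running mice and 27.9 (20.3 to 35.5) in sedentary mice, a log2 fold of 0.51, and at q = 0.0478 in the authors' deposited table it was just inside the threshold, with overlapping intervals. Lepr is also a marker of marrow stroma cells. All 5 stroma markers followed, Lepr among them, had a positive log2 fold (median 0.18), and Lepr alone was called. Their sum was 1056 FPKM in running and 926 in sedentary mice, of which Cxcl12 gave 973 in running and 860 in sedentary mice. Among the 11 receptors of the STAT3 group, the granulocyte colony-stimulating factor receptor Csf3r had 69.7 FPKM (55.2 to 84.1) in running mice and 86.4 (68.4 to 104) in sedentary mice, and the leukaemia inhibitory factor receptor Lifr 65.7 in running and 59.9 in sedentary mice; the list median was 0.07. Of 14 receptors that use STAT5, 12 were tested and none was called (median -0.07). The granulocyte-macrophage receptor subunit Csf2ra had 101 FPKM in running and 121 in sedentary mice, and the erythropoietin receptor Epor 45.2 in running and 41.5 in sedentary mice. In this list 4 of 12 log2 folds were positive, those of Epor, Il2rb, Il2rg and Il5ra. Epor also stands in the erythroid and Il2rb in the T and NK cell marker list.

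Most ligand genes were not tested by the authors. Of 21 ligand genes 7 were tested and none was called, and 5 were listed at 0 in both groups. Growth hormone itself, Gh, which the pituitary makes, stood at 0.333 FPKM in running and 0.317 in sedentary mice and was not tested. The highest were Il15, at 8.17 in running and 5.85 in sedentary mice, and Osm, the gene of oncostatin M and itself a STAT5 target, at 3.88 in running and 4.90 in sedentary mice.

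Among the other kinases and STATs followed, none was called. Jak1, the kinase of interferon and interleukin-6 receptors, had 67.2 FPKM in running and 69.2 in sedentary mice, and Stat6, the STAT of interleukin-4, 39.5 in running and 41.4 in sedentary mice. Of 16 phosphatases, adaptors and PIAS genes none was called (median 0.02). Ptprc, the leukocyte phosphatase CD45, had 91.5 in running and 105 in sedentary mice, and Ptpn6, the phosphatase SHP-1 of blood cells, 87.3 in running and 104 in sedentary mice. Sh2b2, an adaptor that binds JAK2, is named for its value: it had 6.47 (4.74 to 8.20) in running mice and 12.0 (8.27 to 15.8) in sedentary mice. Its intervals only just lay apart, its log2 fold was -0.88, and with q = 0.0949 in the authors' deposited table it was not called. The partners that join SOCS proteins to their ubiquitin ligase, 4 tested genes, were not called either (median -0.07), with Elob at 199 in running and 207 in sedentary mice and Eloc at 70.7 in running and 83.6 in sedentary mice.

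No further STAT target of the lists followed was called. None of 11 tested STAT5 targets was called, and their median log2 fold was 0.01. Mcl1, which protects cells from death, had 118 FPKM in running and 117 in sedentary mice, and Bcl2l1, the gene of BCL-XL, 64.7 in running and 69.0 in sedentary mice. None of 11 STAT3 targets was called either, with a median of -0.10 and positive log2 folds in 2, or in 4 after rescaling. Hp, the gene of haptoglobin, had 464 in running and 496 in sedentary mice, and Lrg1, a secreted glycoprotein of neutrophils, 56.4 in running and 63.1 in sedentary mice.

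**Figure D4:**
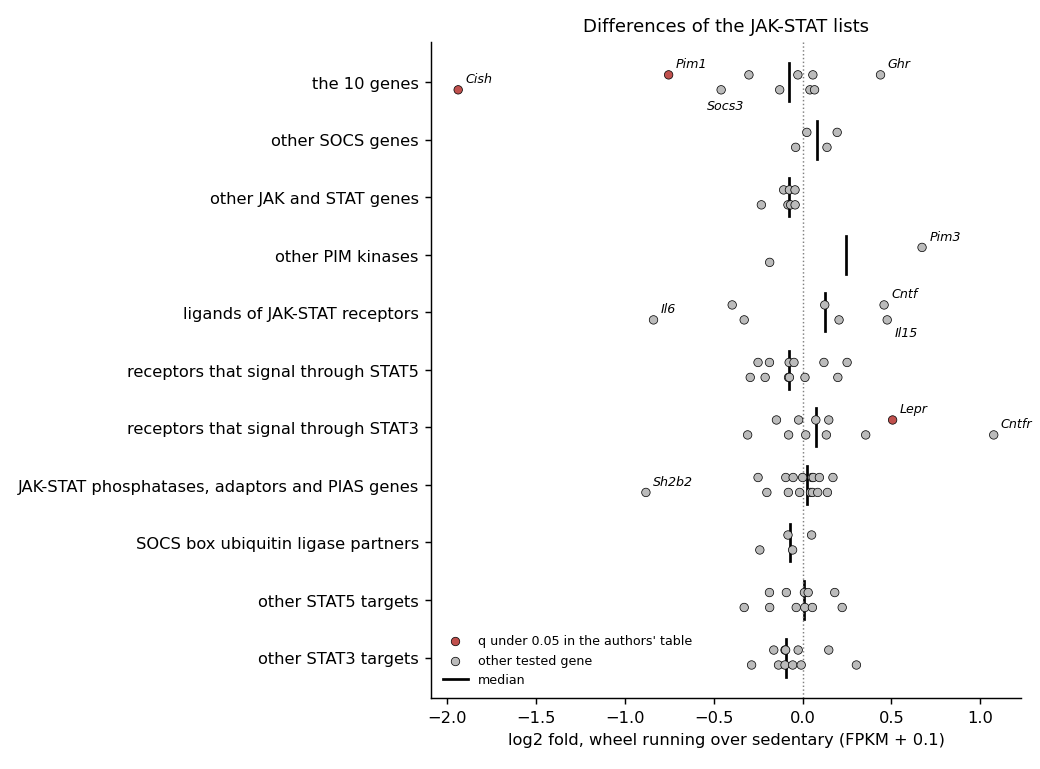
Log2 fold (wheel running over sedentary, FPKM + 0.1) of each tested gene of the 10 genes and of 10 further JAK-STAT lists; a vertical bar is the list median, red marks q under 0.05 in the authors' table, and genes beyond 0.42 in size are named. Cish, Pim1 and Lepr are the red points, and list medians lie between -0.10 and 0.24.

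Some markers of the cell types in bone and marrow were also called between the groups, in some lists and not in others. Their part in the values of the 10 genes was not tested. For the counts below, 0.445% of all tested genes were called higher, 0.497% were called lower, and 48.2% had a positive log2 fold. The labelled tissue was checked against bone markers, which summed to 7108 FPKM in running and 6718 in sedentary mice for osteoblasts and to 426 in running and 338 in sedentary mice for osteocytes. Neutrophil markers, all 8 with a negative log2 fold and none called (median -0.15), summed to 44044 FPKM in running and 51825 in sedentary mice, and all 8 B lineage markers were negative (median -0.17; 340.1 FPKM in running and 382 in sedentary mice). Of 9 mast cell, basophil and eosinophil markers 2 were called lower, the basophil proteases Mcpt8 and Prss34, and 0 higher, with a median of -0.18, while their sum, which the eosinophil gene Prg2 dominates, was 1200.0 FPKM in running and 1166 in sedentary mice. The plasma cell list had 1 of 7 called lower (median -0.24; 240.4 and 328 FPKM in running and sedentary mice). In the other direction, 3 of 7 adipocyte markers were called higher (median 0.59; 495 and 341 FPKM in running and sedentary mice), as were 3 of 8 muscle markers (median 0.32; 1682 and 1372 FPKM). All 8 osteoblast markers were positive with none called (median 0.21), and of 7 tested osteocyte markers 2 were called higher and 1 lower (median 0.27), with Pdpn listed at 0 in both groups. Erythroid markers, with a median of 0.04, T and NK cell markers, with 0.20, and megakaryocyte markers, with -0.11, held no called gene, nor did the endothelial list (median 0.15). The monocyte and macrophage list had 1 gene called in each direction (median 0.14). In 2 more lists, as in the mast cell, basophil and eosinophil list, the sum went against the median. T and NK cell markers summed to 77.6 FPKM in running and 81.4 in sedentary mice. Monocyte and macrophage markers summed to 955 in running and 971 in sedentary mice. The pooled tables do not show which of these cells carried Cish or Pim1.

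**Figure D5:**
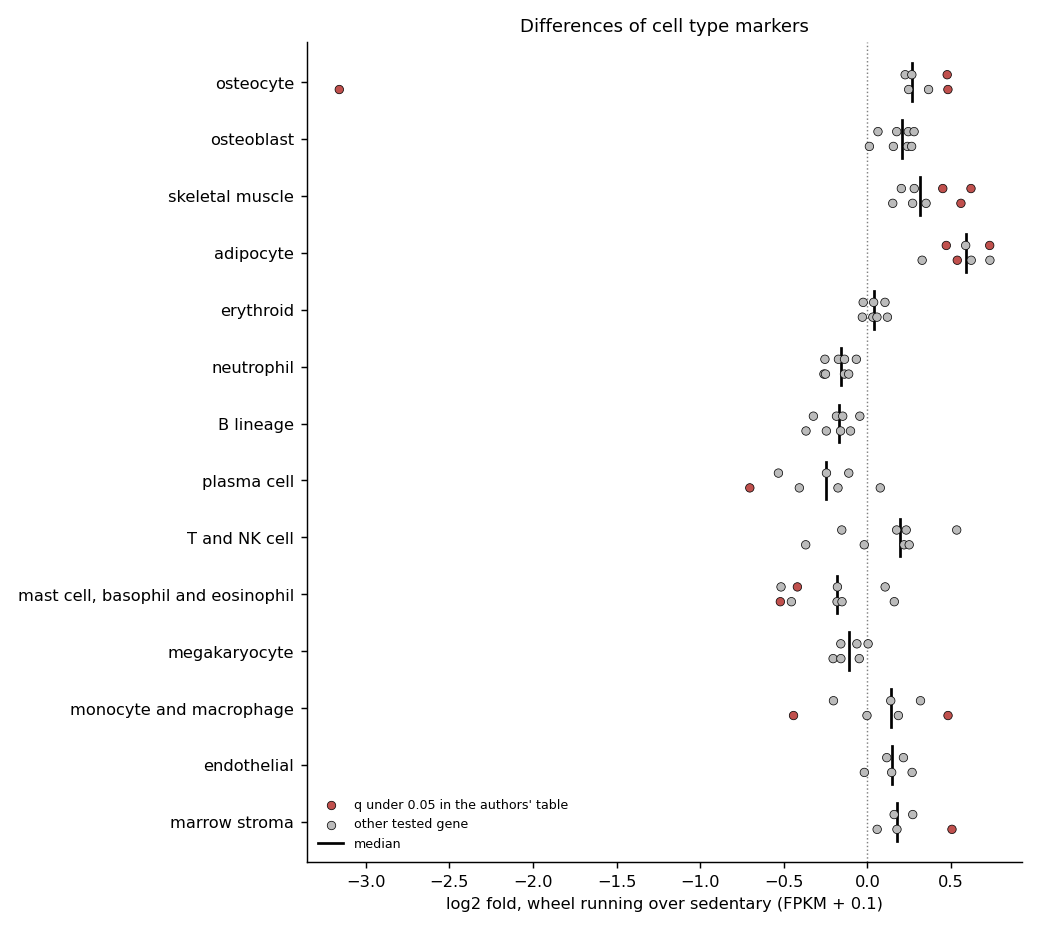
Log2 fold (wheel running over sedentary, FPKM + 0.1) of each tested marker gene by cell type, with list medians as vertical bars and q under 0.05 in the authors' table in red. The 8 neutrophil and 8 B lineage markers lie left of 0, and the 7 adipocyte, 8 muscle and 8 osteoblast markers lie right of it.

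The genes whose pair of group values lay nearest to that of Cish (Euclidean distance of log2(FPKM + 0.1) in both groups) were 3 immunoglobulin V segments and, outside them, Hotairm1 and Pot1b. Hotairm1, a noncoding RNA of the HoxA cluster, had 2.25 FPKM (0.523 to 3.98) in running and 6.08 (0 to 23.4) in sedentary mice and was not called. Pot1b, which protects telomere ends, had 1.96 (0.691 to 3.23) in running and 5.73 (2.62 to 8.85) in sedentary mice and was called lower in the authors' deposited table (q = 0.00718). Likeness over 2 pooled values is a weak measure, and it was taken over these 2 groups alone.

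Depth was estimated from the smallest FPKM steps of single-exon genes and came to 13800000 to 17400000 fragments per running library and 14300000 to 16500000 per sedentary library. At that depth, a Cish transcript of the greatest annotated length (2850 bases) would have given about 246 fragments over the 3 running libraries and 919 over the 3 sedentary libraries, and the shortest coding transcript (411 bases) about 15 in running and 55 in sedentary libraries. For Socs1, whose coding transcripts run from 2785 to 2908 bases, the figures were 197 to 207 fragments in running and 231 to 242 in sedentary libraries. These are counting estimates and do not include the spread between mice.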

How the data were processed

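Polyadenylated RNA was sequenced from 6 femoral bone libraries, 3 from wheel running and 3 from sedentary mice, prepared per the labels' protocols with a NEBNext Ultra Directional kit. Trimmomatic 0.39, HISAT2 2.2.1, SAMtools 1.10, Cufflinks 2.2.1 and GRCm38 are named in the submitters' processing notes, without roles. The authors deposited 1 pooled FPKM per group, with interval bounds in the same unit whose level is not stated. Per the file headers the deposited tables also give a log2 fold and, per gene, a p-value, a q-value and a score, the statistic of the authors' test. The smallest p is 5e-05, and q matched a Benjamini-Hochberg adjustment over 15508 tested genes to within 5.21e-07. The tables have 0 columns of single libraries, so no test between mice was possible, and the authors' q under 0.05 is the call. The series' design text gives 3 mice per group.

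Python 3.11.15 and pandas 2.3.3 were used. A pseudocount of 0.1 FPKM was added before log2 folds. The adjustment and fold steps were tested on simulated data. Coordinates are GENCODE vM21, matched by Ensembl ID; promoter windows are RefSeq. Depth came from single-exon, single-transcript genes over 1500 bases, shortened by 255 bases, taking the 3 lowest steps as 1 fragment in each library and treating each group value as a mean over 3 scaled libraries, as do the fragment estimates. The members and lists were chosen with earlier results of these data known. Named genes are the 10 members, called pathway genes, the 2 most expressed per pathway list, neighbours within 100 kb of Cish and the 5 genes nearest to it, immunoglobulin genes among them counted but not named. Gh, Sh2b2, Pim2, Pim3, Il2rb, Il2rg, Il5ra, Cxcl12, Mcpt8, Prss34, Prg2, Pdpn and the genes of the closing observations were named after their values were seen. Of the listed symbols, Tceb1 and Tceb2 are older names of Eloc and Elob and had no row. Other thresholds, pseudocounts and scalings were tried. One listed gene is not reported here.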

Additional observations from a re-analysis of the deposited data

How the results depend on the processing

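No paired analysis was possible because each group has a single pooled column without replicates; leaving out single libraries was not possible for the same reason. Over other pseudocounts, other scalings and the authors' deposited log2 fold, the log2 fold of Cish ranged from -1.99 to -1.57 and that of Pim1 from -0.76, the authors' deposited value, to -0.71. Over the 10 genes and the 50 values these 3 kinds of alternative gave, 1 log2 fold changed sign, that of Stat5b after rescaling to the same total, which raised all folds by 0.05. The median of the 10 genes was 0.01 when only the 8 with a mean FPKM of at least 5 were kept, which leaves out Cish and Socs1. The 2 called genes of the list became 3 with q under 0.1. They also became 3 with q recomputed over genes of at least 1 FPKM, through Socs3 in both cases. By the recomputed q, 150 of the 14488 tested genes of at least 1 FPKM in either group were called, 71 higher and 79 lower. The count became 0 when genes that share exon bases with another gene were left out, which removes Cish and Pim1 by construction. That alternative and the authors' own folds were chosen after seeing the data. Of the wider pathway, 0 genes were called with q under 0.01 and 3 with q under 0.1, where Pim3 and Sh2b2 join Lepr. All of these reuse the authors' test and are no separate test of it. The width of the Cish interval in running mice limits how exactly its ratio is known.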

Other observations

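The TTCNNNGAA motif was also counted in the promoter windows of all tested genes, a count made after the Cish window had been seen. Of the 77 genes called lower in running mice, 49 have no RefSeq window, and of the 28 that have one 8 hold the motif, or 28.6%. Without Cish, whose window prompted the count, it is 7 of 27 (25.9%). Of the 69 genes called higher, 12 have no window, and 4 of 57 hold the motif (7.02%). Of all 15508 tested genes 4576 have no window, and 907 of the 10923 gene symbols with a window hold the motif (8.30%). Genes called lower thus lacked a window more often than tested genes as a whole. The 8 genes are Fgf23, Syne4, Klra2, Cish, Cstdc4, Gm15446, Apol11a and Apol11b, of which Cish alone has 2 matches in a window. Apol11a and Apol11b are paralogs, so their windows need not be independent. Of 58 tested genes of the wider JAK-STAT lists with a window, 4 hold the motif (6.90%). No test was made of these shares, and a match does not show that a STAT protein binds there. Fgf23, the osteocyte hormone that lowers blood phosphate, had 0.288 FPKM in running and 3.36 in sedentary mice, and Apol11b 40.6 in running and 59.5 in sedentary mice.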
